A study of Mus musculus with 40 samples.

Results

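The subject was the mitochondrial ribosomal proteins, the nuclear-encoded protein subunits of the ribosome that works inside mitochondria. Members were all gene symbols on the array that consist of Mrpl or Mrps followed by a number, with pseudogenes left out, and each gene was represented by its brightest probe. The rule found 76 members, on 132 probes, among 19057 named genes. Of these, 72 passed the filter on dim probes and were tested, as part of 9453 genes tested in all: 47 named or known as large subunit proteins and 25 small subunit proteins. Mrpl19, Mrpl32, Mrpl45 and Mrps14 did not pass the filter and have no test. Mrps18a and Mrps30 carry small subunit names but sit in the large subunit and were counted there. No member lies within 10 Mb of Bank1 on its chromosome.

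Expression was measured on 40 Illumina bead arrays of splenic B cells from C57BL/6 mice. There were 8 groups of 5 biological replicates, formed by genotype (Bank1-/- or WT) and by hours in culture with CpG (0, 6, 24 or 48 h), the 0 h groups being labelled as controls. CpG DNA mimics microbial DNA, which B cells sense with Toll-like receptor 9, and Bank1 encodes a scaffold protein of B cells. The labels name both Bank1+/+ littermates and purchased C57BL/6J mice as WT animals, and do not tell from which of them the arrayed cells came; the knockout was carried by the whole mouse and backcrossed to C57BL/6 for 9 generations. All stimulated groups received CpG, with no culture of the same length without it, so time in culture and CpG cannot be told apart. The cells were purified by depleting other cells on magnetic beads, to a stated typical purity above 95% B220+CD3-.

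Mitochondrial ribosomes translate the few proteins that mitochondrial DNA encodes, all of them membrane subunits of the respiratory chain and ATP synthase. Their RNA is made in the mitochondrion, whereas every protein subunit is translated in the cytosol and imported. The small subunit decodes the messenger RNA, and the large subunit joins the amino acids and releases the chain through its exit tunnel. B cells that leave the resting state grow and divide, and activated lymphocytes build up their mitochondria.

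Bank1 itself, the check of the genotype labels, was lower in Bank1-/- arrays at all 4 times, by 1.84, 1.00, 2.42 and 2.26 on the log2 scale at 0, 6, 24 and 48 h. The value at 6 h was -0.41 (limma adjusted p = 0.383) when arrays were centred on their median and -0.66 (limma adjusted p = 0.0655) when centred on the 75th percentile. The value at 0 h was not called with median centring, at -1.56 (limma adjusted p = 0.177), or in a fit of the 0 h groups alone (limma adjusted p = 0.316). Mean raw intensity per array ran from 145.7 to 539.9, and between 10396 and 16767 probes were detected per array. The WT 6 h arrays had a mean raw intensity of 254 ± 118 (SD, n = 5), against 420 ± 97.9 (SD, n = 5) in Bank1-/- at 6 h. Replicates 1 to 4 of WT at 6 h were dim, at 145.7, 230.7, 231.9 and 205.7. Replicate 5 was bright, at 455.1, within the Bank1-/- 6 h range of 290.3 to 511.2. Array 5 of the Bank1-/- 0 h group stood apart: its root mean square distance was 0.979 to the nearest array of its own group and 0.159 to the nearest Bank1-/- 24 h array. Counts and named values that rest on the Bank1-/- 0 h group are given with and without it. Counts of calls shared between genotypes, of courses over time and at an unadjusted p include it. Without it Bank1 at 0 h was lower by 1.39 on the log2 scale. All 6 matched B cell markers passed the filter. None of the 6 matched T cell markers and none of the 3 matched NK cell markers passed it. Of the myeloid, dendritic cell and platelet markers, 3 of 7, 2 of 5 and 3 of 5 passed, and 4 of the 6 matched erythroid markers did. In bulk RNA, fewer cells of a type and less RNA per cell cannot be told apart.

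Averaged over the 72 tested members, expression was low at 0 h, high at 6 and 24 h, and low again at 48 h in both genotypes. The mean per array, in normalized log2 intensity, was 8.70 to 8.97 in WT at 0 h, 9.90 to 10.16 at 6 h, 9.90 to 9.99 at 24 h and 9.04 to 9.45 at 48 h. In Bank1-/- it was 8.67 to 9.17 at 0 h in 4 arrays and 9.84 in the array that stood apart, then 9.83 to 10.29 at 6 h, 9.86 to 10.05 at 24 h and 9.04 to 9.27 at 48 h. In WT every array of 6 and 24 h lay above every array of 0 and 48 h. The same held in Bank1-/- once the array that stood apart was left out. These means describe the group of genes, and carry no test.

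**Figure D1:**
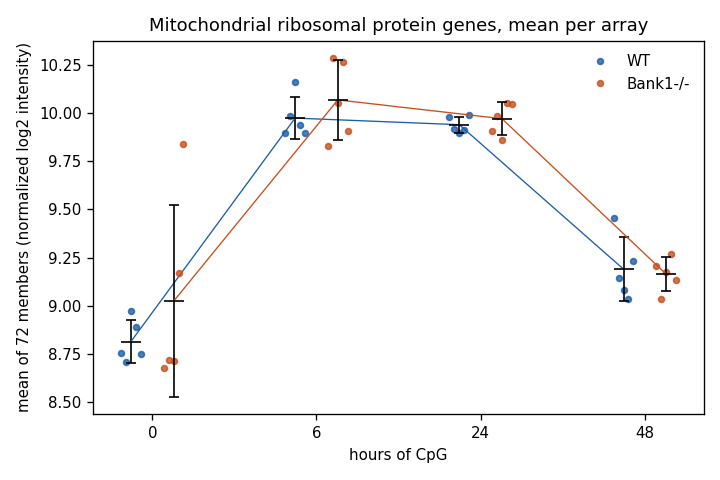
Mean normalized log2 intensity of the 72 tested members on each of 40 arrays, by hours of CpG. Points are arrays, black bars are the group mean and SD (n = 5), and coloured lines join group means; 1 Bank1-/- array at 0 h, at 9.84, lies with the 6 and 24 h arrays.

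From 0 to 6 h in WT cells, 65 of 72 members rose and none fell, against 33.0% of all tested genes called higher and 33.6% called lower. With each array centred on its median in place of quantile normalization, 18 rose and none fell. Of all tested genes 6.37% were then higher and 43.2% lower, and the members' median was 0.27 on the log2 scale. With centring on the 75th percentile 39 rose and none fell, against 26.1% higher and 33% lower, with a median of 0.63. With quantile normalization the median change of the members was 1.12 on the log2 scale (2.17-fold), against -0.0096 for all tested genes. Tests were limma's moderated test over all 40 arrays, two-sided, with a gene called at a Benjamini-Hochberg adjusted p under 0.05 over the 9453 genes. Both subunits took part: 44 of 47 large subunit members rose, with a median of 1.02, and 21 of 25 small subunit members rose, with a median of 1.17. In 57 members all 5 arrays at 6 h lay above all 5 at 0 h, which held for 24.1% of tested genes. The 7 members that did not pass were Mrpl22, Mrpl24, Mrpl39, Mrps15, Mrps18c, Mrps26 and Mrps35.

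Mrpl12, a stalk protein of the large subunit that in human cells also binds the mitochondrial RNA polymerase, had the largest rise. Its normalized log2 intensities in WT were 9.02, 9.14, 9.49, 9.34 and 9.00 at 0 h and 11.96, 11.95, 11.92, 11.82 and 11.50 at 6 h. The groups did not overlap, and the lowest array at 6 h was about 2 log2 units above the highest at 0 h. The change was 2.63 ± 0.24 (SE, log2 scale), or 6.20-fold (limma adjusted p = 4.75e-12). Mrpl42, a subunit with no bacterial counterpart, went from 7.54 to 8.33 at 0 h to between 9.84 and 11.17 at 6 h, a log2 change of 2.61 ± 0.31 (SE; limma adjusted p = 3.02e-09). Replicate 5 was the lowest array of the 6 h group for both genes, and still above all arrays of 0 h.

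Among small subunit proteins, Mrps6 and Mrps5 rose most, and both have bacterial counterparts. Mrps6 had log2 intensities of 7.68, 7.68, 7.97, 7.78 and 7.50 at 0 h and 9.60, 9.85, 10.02, 9.98 and 10.62 at 6 h in WT, with a log2 change of 2.29 ± 0.23 (SE; limma adjusted p = 7.46e-11). Mrps5, which sits at the decoding side of the subunit, went from 6.52 to 7.05 at 0 h to between 8.58 and 9.14 at 6 h, a log2 change of 2.23 ± 0.18 (SE; limma adjusted p = 2.75e-13). Neither pair of groups overlapped. A second detected probe of Mrps5 showed no rise, at -0.0014 on the log2 scale (limma adjusted p = 0.989), so the rise of Mrps5 rests on the chosen probe. At the other end, Mrpl39 ran from 7.40 to 7.98 at 0 h and from 7.54 to 7.81 at 6 h, a log2 difference of -0.05 ± 0.17 (SE; limma adjusted p = 0.804). Its groups overlapped fully.

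In Bank1-/- cells, 67 of 72 members rose from 0 to 6 h and none fell, against 31.2% of all tested genes higher and 29.5% lower. Without the array that stood apart, 68 rose and none fell, and the median log2 change was 1.22 in place of 1.06. Of the members called, 62 were called in both genotypes, which is 95.4% of the WT list and 92.5% of the Bank1-/- list. The changes of the 4 members above were 2.15 for Mrpl12, 1.88 for Mrpl42, 2.48 for Mrps6 and 1.58 for Mrps5 on the log2 scale, all called, and without that array 2.25 for Mrpl42, 2.86 for Mrps6 and 1.74 for Mrps5. The second probe of Mrps5 rose by 0.32 on the log2 scale. Mrpl12 showed the pull of the single array: it had 9.00, 8.96, 8.95 and 9.59 in replicates 1 to 4 at 0 h and 11.08 in replicate 5, while the 6 h arrays lay between 11.37 and 11.95. Without replicate 5 its log2 change was 2.54.

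**Figure D2:**
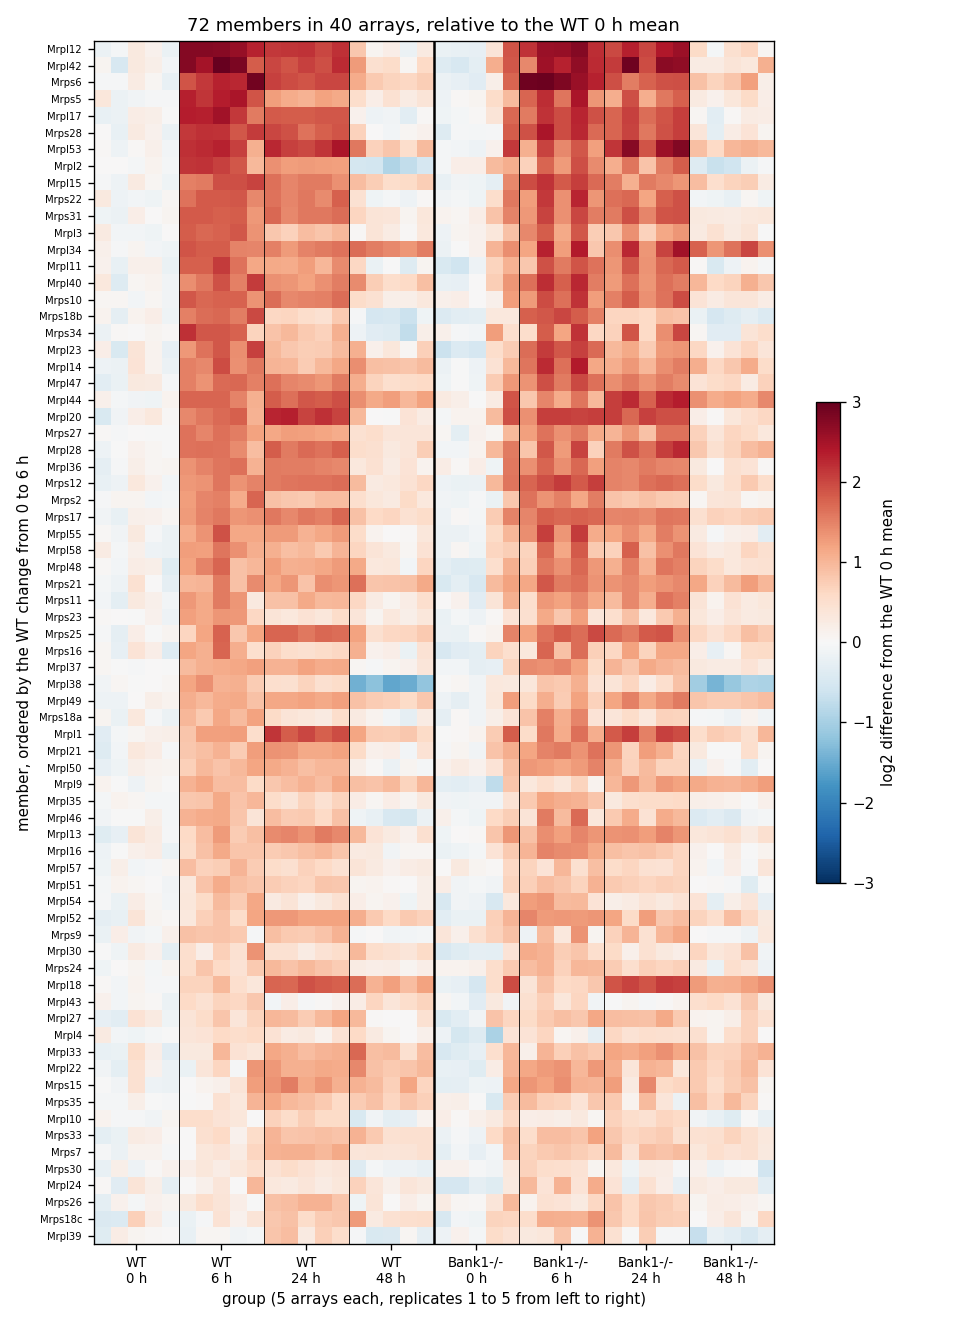
Each row is 1 of 72 tested members and each column 1 of 40 arrays; the colour is the log2 difference from the mean of the 5 WT arrays at 0 h, from -3 (blue) to 3 (red). Rows are ordered by the WT change from 0 to 6 h, from Mrpl12 at 2.63 to Mrpl39 at -0.05. The 6 and 24 h blocks are red in most rows of both genotypes, the 48 h blocks are pale with Mrpl38 blue, and replicate 5 of Bank1-/- at 0 h is redder than its group.

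Because these genes rose together, the 250 bases before a listed start of each gene were searched for motifs. The motifs were those of factors known to act on genes of mitochondrial biogenesis and growth. A window of RefSeq sequence (GRCm38.p6) was matched for 67 of the 76 members. Where several windows were listed for a gene the first was used, and some windows lie inside the gene's annotated span. Both strands were searched. The NRF1 motif GCATGCGC lay in 8 windows, or 11.9%, against 4.86% of the windows of tested genes. The full NRF1 motif, which contains these letters, lay in 3 of those 8 windows, or 4.48%, against 1.73%. The ETS motif CCGGAAGT, to which GABP binds, lay in 13.4% against 6.65%. The YY1 motif AAGATGGC lay in 5.97% against 2.18%, and the E-box CACGTG, to which Myc binds, in 7.46% against 8.91%. The 67 windows include untested members such as Mrpl32, whereas the shares compared are of tested genes. In tested members the NRF1 motif lay in 7 windows, the full NRF1 motif in 2 and the YY1 motif in 3. A match is a description of letters, not a site.

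The windows below, the last 150 bases before the start, are shown for the member with the largest rise and for examples of each of 3 motifs, whose letters are in capitals. Mrpl12 (chr11:120484487-120484636, plus strand) matched none of the motifs in its window. Mrpl2 (chr17:46646071-46646220, plus, the first of 3 windows listed) and Mrpl20 (chr4:155802728-155802877, plus) hold an E-box, Mrpl22 (chr11:58171514-58171663, plus) the NRF1 motif, and Mrpl3 (chr9:105053118-105053267, plus) and Mrps22 (chr9:98601680-98601829, minus) the ETS motif.
Mrpl12: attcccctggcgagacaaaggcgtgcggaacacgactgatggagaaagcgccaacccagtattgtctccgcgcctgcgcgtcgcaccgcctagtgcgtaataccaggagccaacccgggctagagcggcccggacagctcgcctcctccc
Mrpl2: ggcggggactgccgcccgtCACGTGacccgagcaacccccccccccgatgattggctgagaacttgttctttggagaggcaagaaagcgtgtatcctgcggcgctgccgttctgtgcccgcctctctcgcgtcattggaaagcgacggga
Mrpl20: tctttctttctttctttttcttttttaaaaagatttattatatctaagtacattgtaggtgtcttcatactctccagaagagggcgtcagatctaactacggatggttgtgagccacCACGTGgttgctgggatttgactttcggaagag
Mrpl22: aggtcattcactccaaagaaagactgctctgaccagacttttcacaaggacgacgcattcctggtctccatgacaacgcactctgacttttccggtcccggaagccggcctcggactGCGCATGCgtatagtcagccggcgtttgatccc
Mrpl3: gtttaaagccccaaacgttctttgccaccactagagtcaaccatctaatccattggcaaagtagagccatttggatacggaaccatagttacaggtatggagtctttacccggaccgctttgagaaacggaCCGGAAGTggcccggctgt
Mrps22: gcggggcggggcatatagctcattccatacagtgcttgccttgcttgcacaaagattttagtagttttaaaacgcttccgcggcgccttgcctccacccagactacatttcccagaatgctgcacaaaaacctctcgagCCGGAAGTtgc

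The E-box of Mrpl20 begins 33 bases before the start and that of Mrpl2 131 bases before it, while the ETS motif begins 19 bases before the start of Mrpl3 and 11 before that of Mrps22. The NRF1 motif of Mrpl22, on the minus strand, begins 33 bases before the start that its window precedes. That start lies inside the annotated span of Mrpl22 (chr11:58170043-58179580), not at its edge. The windows of Mrpl42, Mrps6 and Mrps5 held none of the motifs either, so that all 4 members with the largest WT rise were without a match. Median WT changes from 0 to 6 h on the log2 scale were 1.43 in the 5 tested members with an E-box and 1.12 in the 59 without, and 0.63 in the 9 with the ETS motif and 1.12 in the 55 without. For the NRF1 motif they were 0.47 in 7 members and 1.12 in 57. These medians carry no test. Mrpl46 and Mrps11 lie head to head on chromosome 7, on opposite strands, with starts 42 bases apart, so their windows share sequence and they are not independent examples.

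From 6 to 24 h the members moved in both directions and their mean stayed level. In WT, 16 rose and 15 fell, against 31.3% of all tested genes higher and 26.0% lower, and the median of the members was -0.09 on the log2 scale. In Bank1-/-, 10 rose and 16 fell, against 23.9% higher and 27.9% lower, with a median of -0.14. Of these, 5 members rose in both genotypes (31.2% of the WT list and 50.0% of the Bank1-/- list), and 8 fell in both (53.3% and 50.0%). The WT counts were 18 rising and 22 falling when the array that stood apart was left out of the shared estimate of spread, and 10 and 11 with array brightness as a covariate. With each array centred on its median in place of quantile normalization, 56 rose and none fell in WT. Of all tested genes 52.4% were then higher and 2.5% lower.

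Mrpl18, a large subunit protein that in human cells also helps carry 5S RNA into mitochondria, was late. Its WT log2 intensities were 7.92, 7.80, 7.97, 7.83 and 7.85 at 0 h, 8.54, 8.53, 8.84, 8.37 and 8.22 at 6 h, and 9.62, 9.61, 9.80, 9.71 and 9.68 at 24 h. No groups overlapped, and the 24 h arrays were the highest. The step from 6 to 24 h was 1.18 ± 0.23 (SE, log2 scale; limma adjusted p = 4.79e-05) in WT and 1.33 ± 0.23 (SE; limma adjusted p = 8.88e-06) in Bank1-/-. Mrpl1, of the stalk at which spent transfer RNA leaves, rose in the same step by 0.92 in WT and 0.69 in Bank1-/- on the log2 scale. A second detected probe of Mrpl18 gave -0.54 from 0 to 6 h in WT, not called, rose by 2.27 from 6 to 24 h in WT, and gave 0.44 in Bank1-/-, not called, on the log2 scale. A second probe of Mrpl1 gave -0.14 in Bank1-/-, not called. Mrps15 and Mrpl22 rose from 6 to 24 h in WT by 0.90 and 0.72 on the log2 scale. In Bank1-/- they had -0.36 and -0.44, neither called. A second detected probe of Mrps15 had 0.25 in WT (limma adjusted p = 0.22). Mrpl44, a protein of the large subunit with a ribonuclease III-like fold, was called higher at 24 h than at 6 h in Bank1-/-, by 0.95 on the log2 scale (limma adjusted p = 0.000197).

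Mrps18b was early. It is one of 3 mammalian relatives of a single bacterial protein, with Mrps18c in the small subunit as well and Mrps18a in the large one. In WT, Mrps18b had 9.37 to 9.84 at 0 h, 11.15 to 11.62 at 6 h and 10.09 to 10.42 at 24 h, and fell by 1.08 on the log2 scale from 6 to 24 h (SE 0.13; limma adjusted p = 1.1e-08). Mrps18a fell by 0.60 in that step, and Mrps18c rose by 0.62 (limma adjusted p = 0.00865). Mrps18b fell in Bank1-/- too, by 1.08 on the log2 scale, where a second probe had -0.42 (limma adjusted p = 0.0599). A further detected probe was called lower there, at -0.46 (limma adjusted p = 0.017). The 3 relatives thus had different courses in WT: from 0 to 6 h, Mrps18b rose by 1.69, Mrps18a rose by 1.02, and Mrps18c, at 0.14 on the log2 scale, was not called. Under median centring the WT values from 6 to 24 h were 0.18 for Mrps18b and 0.57 for Mrps18a, the opposite sign.

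Other WT falls from 6 to 24 h were those of Mrps5, at -1.08, Mrpl3, a protein near the catalytic centre, at -0.86, and Mrpl23, a protein at the exit of the tunnel, at -0.80 on the log2 scale. In Bank1-/- the values were -0.37 for Mrps5 and -0.33 for Mrpl3, neither called, and -0.78 for Mrpl23, which was called. Mrps6 fell by 0.90 on the log2 scale in Bank1-/- and had -0.31 in WT, not called. A second detected probe of Mrps5 went the other way in WT, at 0.29 against -1.08, so the direction of Mrps5 in this step depended on the probe. A second detected probe of Mrpl3 showed no fall in WT, at 0.03 (limma adjusted p = 0.87). Among the 43 further detected probes of 29 members, 31 had the sign of the chosen probe in this step and 40 in the step from 0 to 6 h in WT. Where the chosen probe was called, 10 of 20 further probes were called the same way in this step and 31 of 39 from 0 to 6 h.

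Mrps34, a small subunit protein without a bacterial counterpart, rose by 1.67 from 0 to 6 h and fell by 0.80 from 6 to 24 h on the log2 scale in WT, and the second value was 0.03 with brightness as a covariate. Its WT arrays at 6 h were 11.47, 11.14, 11.14, 11.05 and 9.95, of which replicate 5 lay just below the 24 h range of 9.96 to 10.35. Mrps30, which sits in the large subunit, moved little: it rose by 0.32 from 0 to 6 h, had 0.10 from 6 to 24 h, not called, and fell by 0.62 from 24 to 48 h on the log2 scale. Mrps23, of the small subunit, rose by 1.12 and fell by 0.72 in the first 2 steps in WT, where a second detected probe had 0.30 and -0.02, neither called. In the last step in Bank1-/- its chosen probe was called lower, by 0.42 on the log2 scale. The second probe was called higher, by 0.35 (limma adjusted p = 0.0394), so the direction depended on the probe.

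**Figure D3:**
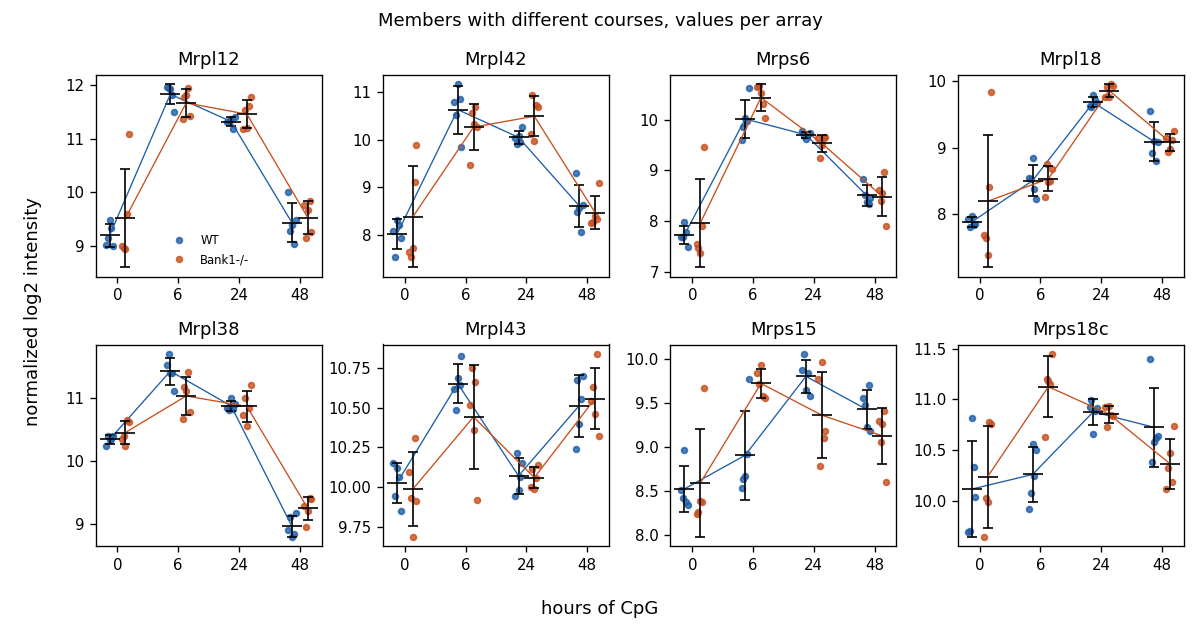
Normalized log2 intensity of 8 members by hours of CpG; points are arrays, black bars the group mean and SD (n = 5), and lines join group means. Mrpl12, Mrpl42 and Mrps6 are highest at 6 or 24 h, Mrpl18 at 24 h, Mrpl38 ends below its 0 h level, Mrpl43 turns up again at 48 h, and Mrps15 and Mrps18c differ between genotypes at 6 h.

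Over 24 to 48 h the members fell. In WT, 54 of 72 fell and 1 rose, against 27.1% of all tested genes lower and 26.6% higher, with a median of -0.72 on the log2 scale. In Bank1-/-, 56 fell and 1 rose, against 25.6% lower and 28.3% higher, with a median of -0.78. With median centring 26 fell in WT, against 11.4% of all tested genes lower and 25% higher, with a median of -0.60. In Bank1-/- 19 then fell and 1 rose, against 6.65% lower and 26.9% higher, with a median of -0.41. The lists shared 52 falling members, or 96.3% of the WT list and 92.9% of the Bank1-/- list. In WT 51 members had all 48 h arrays below all 24 h arrays, which held for 27.6% of tested genes. Of the large subunit members 36 of 47 fell in WT, and of the small subunit members 18 of 25.

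Mrpl2, at the catalytic centre of the large subunit, fell most in WT. Its log2 intensities were 10.10, 9.98, 9.99, 9.97 and 9.95 at 24 h and 8.18, 8.16, 7.82, 7.98 and 8.22 at 48 h. The fall was 1.92 ± 0.21 (SE, log2 scale), or 3.79-fold (limma adjusted p = 1.1e-09), with a wide gap between the groups. Mrpl17, a protein conserved from bacteria, fell by 1.92 and Mrpl12 by 1.88 on the log2 scale in WT, and by 1.84 and 1.93 in Bank1-/-. Mrpl42 fell by 2.02 on the log2 scale in Bank1-/- and by 1.44 in WT. For Mrpl17 and Mrpl12 the WT arrays of 48 h overlapped those of 0 h, while Mrpl2 at 48 h lay below all of its 0 h arrays, which ran from 8.66 to 8.81.

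Mrpl38, a large subunit protein without a bacterial counterpart, ended far below its starting level on its chosen probe. In WT it had 10.23, 10.41, 10.34, 10.35 and 10.40 at 0 h, 11.12 to 11.71 at 6 h, 10.82 to 11.00 at 24 h, and 8.91, 9.12, 8.79, 8.85 and 9.17 at 48 h. Every 48 h array lay more than 1 log2 unit below every 0 h array. The step from 24 to 48 h was -1.91 ± 0.12 (SE, log2 scale; limma adjusted p = 1.81e-15), and 48 h against 0 h was -1.38 in WT and -1.20 in Bank1-/-, both called, and -1.16 in Bank1-/- without the array that stood apart. A second detected probe of Mrpl38 was called lower too, by less: -0.63 from 24 to 48 h in WT. At 48 h against 0 h it had -0.49 in WT and -0.54 in Bank1-/- on the log2 scale, so the size of the fall depended on the probe. Mrpl43, also a large subunit protein, was the single member that rose in the last step, in both genotypes. Its WT values were 9.94, 10.22, 9.98, 10.06 and 10.15 at 24 h and 10.24, 10.67, 10.40, 10.56 and 10.70 at 48 h, so the groups met closely but did not overlap. The change was 0.44 (limma adjusted p = 0.0022) in WT and 0.50 (limma adjusted p = 0.000681) in Bank1-/- on the log2 scale. A second detected probe of Mrpl43 did not show it, at 0.15 (limma adjusted p = 0.448) in WT and -0.13 (limma adjusted p = 0.528) in Bank1-/-.

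**Figure D4:**
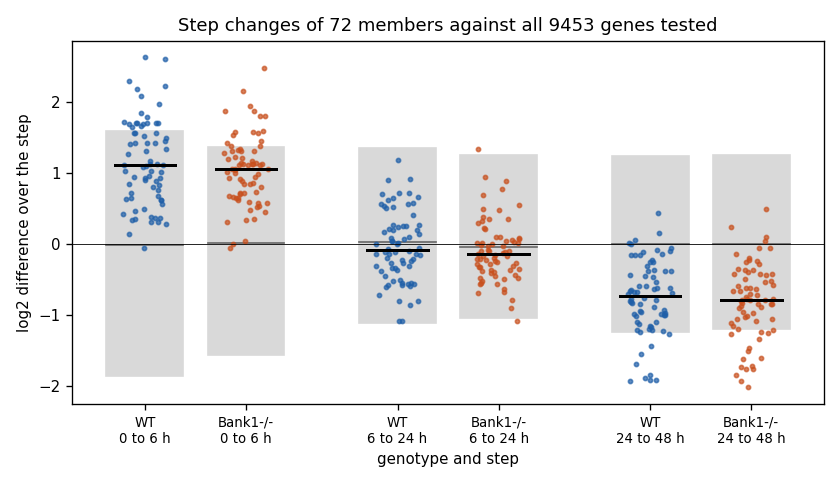
Log2 difference over each step for the 72 tested members (points; their horizontal scatter carries no meaning), with the members' median as a black line. Grey boxes span the 5th to the 95th percentile of all 9453 tested genes and grey lines their median; members lie mostly above 0 from 0 to 6 h, around 0 from 6 to 24 h and mostly below 0 from 24 to 48 h in both genotypes.

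Set against the start of culture, 68 members were higher at 24 h in WT and none lower, against 34.6% and 30.1% of tested genes, and 66 and none in Bank1-/-, against 29.3% and 30.5%, or 69 and none without the array that stood apart. At 48 h, 30 members were still higher than at 0 h in WT and 3 lower, against 29.0% and 26.0% of tested genes, with a median of 0.36 on the log2 scale. In Bank1-/-, 18 were higher and 7 lower at 48 h, against 25.3% and 25.7%, with a median of 0.14. Without the array that stood apart these counts were 37 and 5, with a median of 0.36. Mrpl34, Mrpl18 and Mrpl44 were among the members that stayed high, at 1.51, 1.22 and 1.20 on the log2 scale in WT. Mrpl9 stayed up in both genotypes, by 0.88 in WT and 1.27 in Bank1-/-, after a rise of 0.93 and 0.54 from 0 to 6 h. Without the array that stood apart the Bank1-/- values of Mrpl9 were 1.51 and 0.78. For Mrpl18 a second detected probe had 0.53 at 48 h against 0 h in WT, not called.

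The most frequent course was a rise from 0 to 6 h, no call from 6 to 24 h and a fall from 24 to 48 h, seen in 34 members in WT and 36 in Bank1-/-. By group means, 39 members were highest at 6 h, 32 at 24 h and 1 at 48 h in WT, and 46, 25 and 1 in Bank1-/-. The lowest mean was at 0 h for 62 members and at 48 h for 10 in WT. In Bank1-/- it was at 0 h for 45 and at 48 h for 27, a count that includes the array that stood apart. Expression of B cell markers moved the other way: all 6 fell from 0 to 6 h in WT, with a median log2 change of -2.15, and 5 of 6 rose from 24 to 48 h. Their part in the members' course was not tested.

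The rest of the mitochondrial translation apparatus was read from lists drawn up for this comparison. Of 4 tested mitoribosome proteins with other symbols, all rose from 0 to 6 h in WT, among them Chchd1, a small subunit protein, by 1.58 and Gadd45gip1, a large subunit protein, by 1.14 on the log2 scale, and 3 fell from 24 to 48 h. Of 23 tested mitoribosome assembly genes, 17 rose and none fell from 0 to 6 h, with a median of 0.77 on the log2 scale, and 14 fell and none rose from 24 to 48 h. Mrm3, which methylates the large ribosomal RNA, rose by 2.60, and the GTPases Mtg1 and Noa1 rose by 2.19 and 2.10 on the log2 scale. Noa1 fell by 1.96 in the last step.

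Of 17 tested mitochondrial translation factors, 10 rose and 1 fell from 0 to 6 h in WT, with a median of 0.44 on the log2 scale. Tsfm, an elongation factor, rose by 2.42 and Lrpprc, which stabilizes mitochondrial messenger RNA, rose by 1.54. Of 9 tested genes for transcription and copying of mitochondrial DNA, 5 rose and 2 fell: the topoisomerase Top1mt rose by 1.96 and the helicase Twnk by 1.41, while Polg2, a polymerase subunit, fell by 0.63 on the log2 scale. Of 12 tested regulators of mitochondrial genes, 6 rose and 3 fell. Pprc1, a coactivator, rose by 2.39 and Myc by 1.75, and the nuclear receptor Esrra fell by 0.80 on the log2 scale. In the last step Pprc1 fell by 1.70, Myc fell by 0.75 and Esrra rose by 0.79.

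Of 56 tested cytosolic ribosomal proteins, which build the ribosome outside mitochondria, 26 rose and 4 fell from 0 to 6 h in WT, with a median of 0.18 on the log2 scale, and 14 rose and 8 fell from 24 to 48 h, with a median of 0.09. Of 71 nuclear-encoded respiratory chain subunits, 45 rose and 3 fell from 0 to 6 h, with a median of 0.66. From 24 to 48 h 29 fell and 11 rose, with a median of -0.30, and at 48 h 46 were above 0 h and 1 below. The lists were described by count and median, and differences between them were not tested.

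Genotype differences among the members were called at 6 h. At 0 h none of the 72 members was called, against 0.709% of all tested genes higher and 0.815% lower in Bank1-/-. The members' median of 0.22 on the log2 scale at 0 h became 0.0036 without the array that stood apart. At 24 h none was called, against 0.0423% higher and 0.0635% lower, and at 48 h none, against 0.0952% and 0.0741%. Before adjustment, 17, 4 and 1 of the 72 members had a limma p under 0.05 at 0, 24 and 48 h. These counts include the array that stood apart and are given without the share over all genes, so they carry no result about the members. Members with the smallest p were Mrpl50 and Mrps31 at 0 h, at 0.37 and 0.54 on the log2 scale (0.23 and 0.30 without the array that stood apart), Mrps30 and Mrpl39 at 24 h, at -0.30 and -0.43, and Mrpl38 and Mrps18c at 48 h, at 0.29 and -0.36.

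At 6 h 10 of 72 members were higher in Bank1-/- and 2 lower, against 14.5% of all tested genes higher and 7.55% lower. The 10 make up 13.9% of the tested members, a share near that of all genes. None of the 12 was called when array brightness entered as a covariate. Replicates 1 to 4 of WT at 6 h were the dim arrays, while replicate 5 of WT was as bright as the Bank1-/- arrays. With centring on the median 65 members were higher and none lower, against 51.2% and 0.138% of all tested genes. With centring on the 75th percentile the counts were 63 and none, against 43.2% and 3.51%. Of the 12, 5 had a second detected probe. None of these 5 probes was called, and all 5 had the sign of the chosen one. Over all members 27 of 43 further probes had the sign of the chosen one. The genotype difference at 6 h thus depended on how brightness was handled, and also on WT replicate 1, without which 3 members were called. Without the array that stood apart 18 were called, but that array is of 0 h and enters here only through the shared estimate of spread. Both counts are given without the share over all genes. The erythroid marker list, the mean of its probes on an array, also ran higher at 6 h in Bank1-/-, at 7.68 to 8.18, than in WT, at 6.94 to 7.20 normalized log2 intensity, with 3 of its 4 tested genes called higher. Its part in these differences was not tested.

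Mrps18c, of the small subunit, differed most. It had 10.63, 11.20, 11.18, 11.15 and 11.45 in Bank1-/- and 9.92, 10.07, 10.56, 10.24 and 10.50 in WT at 6 h, without overlap, a log2 difference of 0.87 ± 0.20 (SE; limma adjusted p = 0.00256). With brightness as a covariate it was 0.67 (limma adjusted p = 0.148). Mrps15, a small subunit protein conserved from bacteria, had 9.85, 9.72, 9.93, 9.58 and 9.56 in Bank1-/- and 8.54, 8.64, 8.67, 8.92 and 9.78 in WT. Replicate 5 of WT, the highest, lay among the Bank1-/- arrays, so the groups overlapped. The log2 difference was 0.82 (limma adjusted p = 0.00998), and 0.38 (limma adjusted p = 0.519) with brightness as a covariate. A second detected probe of Mrps15 had 0.24 (limma adjusted p = 0.328).

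Mrpl22, whose bacterial counterpart lines the exit tunnel, was higher by 0.80 on the log2 scale, Mrpl52 by 0.61, Mrpl39 by 0.55 and Mrps33 by 0.53. For Mrpl22 the WT values were 8.37, 8.95, 9.24, 8.55 and 9.90, again with replicate 5 highest, against 9.59 to 9.92 in Bank1-/-. Mrpl9 and Mrpl38 were lower in Bank1-/-, at -0.55 and -0.39 on the log2 scale, while their second detected probes had -0.10 (limma adjusted p = 0.711) and -0.28 (limma adjusted p = 0.184). Mrpl9 had 9.36 to 9.91 in Bank1-/- and 9.83 to 10.43 in WT at 6 h, with a narrow overlap. Both had the opposite sign under centring, at 0.59 and 0.77 with the median and 0.34 and 0.52 with the 75th percentile.

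**Figure D5:**
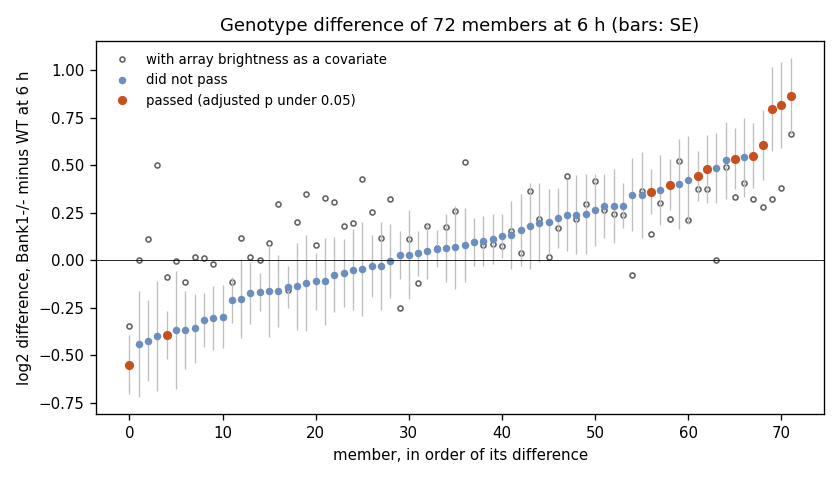
Log2 difference between Bank1-/- and WT at 6 h for the 72 tested members in order of its size, with SE bars; filled points are the fit without and open circles the fit with array brightness as a covariate. The 12 members that passed run from -0.55 (Mrpl9) to 0.87 (Mrps18c), and none passed with the covariate.

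The responses of the genotypes were also compared with an interaction term. From 0 to 6 h no member's response was called different by limma. Of all tested genes 5.59% were called with a larger and 3.81% with a smaller response in Bank1-/-. With all arrays 14 of 72 members had an unadjusted limma p under 0.05, a count given without the share over all genes. Without WT replicate 5 of 6 h, 13 members were called, and without the array that stood apart 5, all with a larger response in Bank1-/-. Both counts are also given without the share over all genes, so they carry no result about the members. The members' median was -0.11 on the log2 scale with that array and 0.10 without it. Mrpl44 and Mrpl2 came closest with all arrays, at -0.88 (limma adjusted p = 0.05) and -0.90 (limma adjusted p = 0.0513) on the log2 scale, and had -0.53 and -0.75 without it, not called. From 6 to 24 h the response of 3 members was higher in Bank1-/- and of 11 lower, against 7.85% and 14.9%. The lower ones included Mrps15, Mrpl22, Mrpl39, Mrpl52 and Mrpl50, at -1.26, -1.16, -0.98, -0.90 and -0.57. The second probe of Mrps15 had -0.36 (limma adjusted p = 0.293), and 30 of 43 further probes had the sign of the chosen one. Where the chosen probe was called, 0 of 6 further probes were called the same way and 4 had its sign. Mrps5 had 0.71 on its chosen probe and -0.44 on the second (limma adjusted p = 0.00446). Mrps23 had 0.62 and -0.43, the second not called. Mrps15 went from 8.54 to 9.78 at 6 h to 9.59 to 10.07 at 24 h in WT, and from 9.56 to 9.93 to 8.79 to 9.97 in Bank1-/-. Of the members named here, Mrps15, Mrpl22, Mrpl39 and Mrpl52 were already called different between the genotypes at 6 h, and the comparison shares those arrays. With brightness as a covariate no member's response from 6 to 24 h was called. Leaving out 1 array at a time gave 9 called members without Bank1-/- replicate 2 of 24 h. It gave 23 without the array that stood apart, which enters this step only through the shared estimate of spread. Both counts are given without the share over all genes. From 24 to 48 h none differed, against 0.0212% of genes in each direction.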

How the data were processed

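The authors deposited probe intensity on a linear scale, not normalized per the file headers, for 40 arrays, and a processed table of log2 intensity whose processing is not given in the sources used here. The 8 further columns of the intensity table match no sample and were not used. The deposited intensity was processed with limma 3.58.1 (R 4.3.3): normexp background correction (offset 50), then quantile normalization between arrays and log2. A probe counted as detected above the 99th percentile of 1287 olfactory receptor probes on its array, and was kept when detected on at least 5 of 40 arrays. Gene names came from the platform's annotation, updated through Entrez: 34885 of 45281 probes had 1 symbol, 18 had several and 10378 had none. Each gene was represented by the probe with the highest mean in the authors' log2 table.

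One limma model with 8 group coefficients gave 17 comparisons, with Benjamini-Hochberg adjustment over 9453 genes within each comparison. It was tested on simulated data. Precision was limited by the number of arrays, 5 per group. Groups and replicate numbers came from the labels, which call the arrays biological replicates. The members and lists were chosen with earlier results of these data known. Named were the 4 largest called WT rises and falls per step with their Bank1-/- values and the 2 largest there, the 6 largest called genotype differences each way at 6 h, up to 5 called members (or the 2 with the smallest p) elsewhere, up to 3 called genes of each other list, members with another reported role or place (Mrps18a, Mrps18b, Mrps18c, Mrps30, Mrpl12, Mrps34, Mrpl18), and Mrps5 and Mrps23, picked for probes that disagreed; further probes of other named members are given where they were not called as the chosen one was. Members outside that rule, such as Mrpl34, were chosen after their values were seen. So were the further probes of Mrpl38 and Mrps18b that were called as the chosen one was. Figures were drawn with matplotlib 3.10.9 in Python 3.11.15.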

Additional observations from a re-analysis of the deposited data

Results flagged for a closer look

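In 232 sets of 5 arrays, a group each for 28 named members and the members' mean, 16 held 1 array far from the other 4, by Dixon's ratio at its 95% critical value, and chance gives about 1 in 20. All values are normalized log2 intensities. Array 5 of the Bank1-/- 0 h group accounts for 4: Mrps6 at 9.465 (others 7.38 to 7.91), Mrps15 at 9.68 (others 8.24 to 8.39), Mrpl44 at 9.576 (others 7.67 to 7.95) and Mrpl17 at 11.52 (others 9.67 to 10.19). Replicate 5 of WT at 6 h was low for 5: Mrpl3 at 10.49 (others 10.87 to 11.00), Mrpl2 at 9.695 (others 10.59 to 10.88), Mrps31 at 10.07 (others 10.56 to 10.61), Mrps34 at 9.95 (others 11.05 to 11.47) and Mrps23 at 10.32 (others 10.83 to 11.02).

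Replicate 1 of WT was high for Mrpl22 at 24 h, at 9.888 (others 9.64 to 9.71), and at 48 h, at 10.04 (others 9.37 to 9.54). It was also high for Mrpl2 at 24 h, at 10.1 (others 9.95 to 9.99), and for Mrps18c at 48 h, at 11.4 (others 10.38 to 10.64). The remaining 3 were Mrps15 in WT at 0 h, replicate 3, at 8.974 (others 8.34 to 8.52), Mrpl42 in Bank1-/- at 48 h, replicate 5, at 9.101 (others 8.26 to 8.40), and Mrpl52 in Bank1-/- at 6 h, replicate 1, at 11.7 (others 11.51 to 11.55).

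The change from 6 to 24 h differed between the genotypes, Bank1-/- minus WT, by limma's interaction term for Mrpl39 (-0.975), Mrps15 (-1.26), Mrpl22 (-1.16), Mrpl52 (-0.901) and Mrpl50 (-0.568) on the log2 scale. None of these 5 was called with array brightness as a covariate.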

How the results depend on the processing

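Counts are of the 72 tested members called, and medians are their log2 differences. A count whose share over all tested genes is given neither here nor above carries no result about the members. The rise from 0 to 6 h, the level at 24 h above 0 h and the fall from 24 to 48 h kept the sign of their medians in both genotypes under all settings run. With median centring the median of all genes was 0.60 for genotype at 6 h, -0.39 for WT from 0 to 6 h and 0.58 for WT from 6 to 24 h, against 0.05, -0.0096 and 0.04 with quantile normalization. Relative to the centred medians, members' medians were 0.58, 0.66 and 0.57. It moved the share of all called genes that were higher from 65.8% to 99.7% at 6 h between genotypes and from 49.5% to 12.9% in WT from 0 to 6 h. Why the centrings differ was not tested. The brightness of an array, and 5 arrays per group, limit small differences.

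With median centring, medians for genotype at 6, 24 and 48 h were 1.18, -0.503 and -0.382, with 65 called at 6 h. In WT, 0 to 6 h gave 18 called (median 0.274), 6 to 24 h 56 (1.16), 24 to 48 h 26, and medians against 0 h were 1.33 at 24 h and 0.757 at 48 h. In Bank1-/-, 6 to 24 h had a median of -0.623, 24 to 48 h 20 called (-0.412), 24 h against 0 h 20 (0.471) and 48 h against 0 h 6. Interaction medians were 0.765 from 0 to 6 h and -1.67 from 6 to 24 h, with 69 called, all lower, against 58.4% of all tested genes. With 75th percentile centring, genotype at 6 h gave 63 called (0.929) and at 24 h a median of -0.292. In WT, 0 to 6 h gave 39 (0.63), with medians of 0.801 from 6 to 24 h and 1.33 at 24 h against 0 h. In Bank1-/- medians were -0.519 from 6 to 24 h and 0.716 at 24 h against 0 h, with 11 called at 48 h against 0 h. Interactions gave 0.548 from 0 to 6 h and 57 called (-1.21) from 6 to 24 h, all lower, against 43.2% of all tested genes.

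Signs turned with median centring at 6 h between genotypes for Mrpl9 (0.587) and Mrpl38 (0.773), at 48 h for Mrpl38 (-0.0921), from 0 to 6 h in WT for Dap3 (-0.0834), Mrps18c (-0.798), Mrps30 (-0.612) and Mrpl18 (-0.23), and from 6 to 24 h in WT for Mrps18b (0.177), Mrpl3 (0.416), Mrpl23 (0.435), Mrps18a (0.574), Mrpl12 (0.684), Mrps34 (0.452) and Mrps23 (0.552). They also turned from 24 to 48 h for Mrps18c (0.00399) and Mrps23 (0.00814), and in the 0 to 6 h interaction for Mrpl44 (0.0383) and Mrpl2 (0.0676). With 75th percentile centring they turned for Mrpl9 (0.337) and Mrpl38 (0.523) at 6 h, Mrps18c (-0.442) and Mrps30 (-0.257) from 0 to 6 h, and Mrpl3 (0.0608), Mrpl23 (0.0801), Mrps18a (0.218), Mrpl12 (0.329), Mrps34 (0.0969) and Mrps23 (0.197) from 6 to 24 h. The mean of all detected probes turned Mrps23 from 24 to 48 h in WT (0.0171), and brightness turned Mrps34 from 6 to 24 h (0.0281, or 0.0332 without the array that stood apart).

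With brightness as a covariate, 3 were called between genotypes at 0 h, 0 at 6 h and 0 in the 6 to 24 h interaction. The same without the array that stood apart, a setting chosen after seeing the data, gave 3, 0 and 0, with 44 (0.361) for Bank1-/- at 48 h against 0 h and a median of 0.151 for the 0 to 6 h interaction. Array weights gave 2, 23 and 12 between genotypes at 0, 6 and 24 h, with a median of -0.0526 at 0 h, 51 for WT and 56 (0.432) for Bank1-/- at 48 h against 0 h, a median of 1.33 for Bank1-/- at 24 h against 0 h, and 25 and 36 in the first 2 interactions. Fits on only the groups compared gave 6 for genotype at 6 h and 14 for Bank1-/- at 48 h against 0 h. The 0 to 6 h interaction gave 1 with the authors' log2 table, 1 without background correction, 1 with the mean of probes and 2 with the filter at 20 arrays. The counts of this paragraph are given without the share over all tested genes, so they describe the fits and not the members.

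Leaving out 1 array at a time gave the following ranges. Between genotypes 0 to 2 were called at 0 h (median 0.00355 to 0.317) and 3 to 18 at 6 h, the lowest without WT replicate 1. Bank1-/- at 48 h against 0 h gave 19 to 42 (median 0.0258 to 0.359), and the interactions gave 0 to 13 from 0 to 6 h and 9 to 23 from 6 to 24 h. The highest counts at 6 h between genotypes and in the 6 to 24 h interaction came without the array that stood apart. It enters those 2 comparisons only through the shared estimate of spread.

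Replicate numbers were shared across groups, but same-numbered arrays did not deviate together (median correlation -0.00719 over 140 pairs), and the replicate block moved no count of called members by more than 2: 63 in place of 65 were called from 0 to 6 h in WT, and 12 at 6 h between genotypes as without it. A slide block was not run, since the headers give no slide.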
